A study of Homo sapiens with 8 samples.

Results

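The matrix metalloproteases (MMPs), the ADAM and ADAMTS metalloproteases and their inhibitors, the TIMPs, were followed by RNA sequencing in MDA-MB-231 cells and 3 lines derived for the study of SUN2. The genes were taken from the count table by symbol: every MMP, ADAM or ADAMTS followed by a number, and TIMP1 to TIMP4. This gave 67 of the 25369 genes listed, made up of 22 MMPs, 22 ADAMs, 19 ADAMTSs and 4 TIMPs. No measured value entered the choice by symbol.

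MDA-MB-231 is an established human triple-negative breast cancer line of mesenchymal appearance. SUN2 is a protein of the inner nuclear membrane that links the lamina to nesprins on the outer membrane. There were 8 libraries in 4 groups of 2. The SUN2KO group is labelled as a SUN2 knockout. In the Kashlid group residues 569 to 585 of SUN2 were deleted, a change made to uncouple it from Nesprin-2G. In the LBD group residues 1 to 139, the lamin-binding domain, were deleted. The WT group was the unmodified line. All 4 groups shared the MDA-MB-231 background, and 10000000 cells went into each sample. The labels do not say in which cells the truncated forms were made, how they were introduced, or whether a line was 1 clone. Nor do they say that the replicates were separate cultures, so the p-values cover library-to-library spread alone, and that spread may be technical.

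MMPs and ADAMTSs are zinc proteases that cut collagens, proteoglycans and other matrix proteins. They are made as inactive precursors, and many are switched on by furin-type convertases. Most ADAMs sit in the plasma membrane, where the catalytically active ones shed growth factors, receptors and adhesion proteins, among them ligands of the EGF receptor. TIMPs are small secreted proteins that block the active site of MMPs and, to differing degrees, of ADAMs and ADAMTSs. In breast cancer these proteases are studied for their part in invasion through matrix.

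Library totals lay between 16570099 and 18814795 counts, and 14016 genes passed the filter on low counts and were tested. The SUN2 transcript was reduced but present, at 33.8% (SUN2KO), 43.8% (Kashlid) and 40.5% (LBD) of WT, and gene-level counts cannot tell deleted from intact transcripts. The labelled cell type was checked against markers fixed for it: VIM, CD44, AXL, SPARC and ZEB1 lay between 23.3 and 420 CPM (counts relative to the library total, scaled with TMM factors), while ESR1 had 6 to 17 counts, PGR 0 to 1 and CDH1 10 to 29 per library. ERBB2, the fourth marker listed as absent or low, was at 47.8 to 57.9 CPM. Of 7 markers of HEK293-type cells, SOX11 was at 0 in every library, PAX2 at 0 to 1 counts, and NEFM and NEFL at 0 to 3. LIN28B had 0 to 17 counts per library, LHX1 4 to 32 and TUBB2B 77 to 157, or 4.45 to 9.21 CPM for TUBB2B. The summed level of the 7 markers, most of it TUBB2B, ran from 6.55 to 7.79 CPM in SUN2KO and 5.61 to 7.27 in Kashlid. In LBD it was 7.29 to 7.65 and in WT 9.32 to 9.75, and its part in the results was not tested. In bulk RNA, fewer cells that express a gene and less RNA per cell cannot be told apart.

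Of the 67 genes, 36 were tested: 12 MMPs, 10 ADAMs, 10 ADAMTSs and all 4 TIMPs. Another 17 had reads but stayed below the filter, with 1 to 44 counts over the 8 libraries together. The last 14 had 0 counts in every library, namely ADAM2, ADAM5, ADAM6, ADAM7, ADAM18, ADAM29, ADAM30, ADAMTS9, ADAMTS19, MMP3, MMP8, MMP20, MMP26 and MMP27. The filter depends on the level in any 1 group, so the tested genes are not a sample of all 67.

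The genes lie partly in clusters, 7 in all, with 44 to 27007 counts over all libraries. The collagenase and stromelysin cluster on chromosome 11 (hg19, 102391239 to 102826463) holds MMP7, MMP20, MMP27, MMP8, MMP10, MMP1, MMP3, MMP12 and MMP13, and its 9 genes had 145 counts over all libraries. MMP1, the interstitial collagenase, had 2 counts in all, 1 in SUN2KO and 1 in WT. MDA-MB-231 is often described as expressing MMP1, and the annotation release used for the counts is not given in the sources used here. The near absence is a property of this count table and was not tested further. MMP13, collagenase-3, was at 7 and 6 counts in SUN2KO, 2 and 3 in Kashlid, 3 and 5 in LBD, and 9 and 9 in WT. The chromosome 8 cluster of ADAM9, ADAM32, ADAM5, ADAM18 and ADAM2 had 27007 counts, 26976 of them from ADAM9. Among the genes below the filter, ADAMTS17 was listed with 0 counts in all 6 libraries of the SUN2 lines and with 3 and 3 counts in WT. It was chosen after its counts were seen, and it was not tested.

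Levels were compared between genes as CPM per kilobase of exon (GENCODE v29 exon lengths, available for all 36 tested genes). The most abundant were TIMP2 and TIMP1, while TIMP3 and TIMP4 lay below ADAM15, ADAM9 and MMP2 in WT. TIMP2 stood at 149.5 ± 1.98 CPM per kilobase in SUN2KO, 115 ± 7.87 in Kashlid, 142 ± 5.13 in LBD and 133 ± 0.716 in WT (SD, n = 2). TIMP1 stood at 108 ± 0.670 in SUN2KO, 124 ± 5.10 in Kashlid, 133 ± 0.615 in LBD and 96.8 ± 5.45 in WT. In WT and SUN2KO TIMP2 was above TIMP1 by more than their SDs, while in Kashlid both inhibitors lay closer together than the sum of their SDs. Here and below, these SDs cover the spread between libraries and not the choice of exon length. The order of genes depends on that choice, and the annotation behind the counts is not given.

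ADAM15 was the most abundant protease per kilobase, at 72.5 ± 3.50 in SUN2KO, 71.2 ± 6.47 in Kashlid, 75.6 ± 0.892 in LBD and 77.4 ± 0.346 in WT (CPM per kilobase, SD, n = 2). It was followed in WT by ADAM9 at 47.9 ± 0.140 and by MMP2, gelatinase A, at 37.5 ± 0.847. In the SUN2 lines the order of the last pair turned over or closed: ADAM9 stood at 29.3 ± 0.764 and MMP2 at 28.9 ± 0.813 in SUN2KO, which do not differ beyond their spread. In Kashlid ADAM9 stood at 26.2 ± 1.27 and MMP2 at 39.7 ± 0.656, and in LBD at 26.8 ± 0.529 and 40.5 ± 1.42. The most abundant ADAMTS was ADAMTS1, at 7.21 ± 0.484 in SUN2KO, 7.01 ± 0.492 in Kashlid, 5.92 ± 0.379 in LBD and 12.5 ± 0.581 in WT. MMP9, gelatinase B, was low throughout, between 0.425 and 0.537 CPM per kilobase as group means.

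A gene was called where the adjusted p of edgeR's quasi-likelihood test was under 0.05, Benjamini-Hochberg over all genes tested. In SUN2KO against WT 11 of the 36 tested genes were called, 5 higher and 6 lower, or 30.6%, against 36.7% of all genes tested (17.5% higher and 19.1% lower). In Kashlid against WT 20 were called, 10 higher and 10 lower, or 55.6%, against 44.5% of all genes (21.7% higher and 22.7% lower). In LBD against WT 16 were called, 9 higher and 7 lower, or 44.4%, against 40.0% of all genes (19.0% higher and 21.0% lower). Leaving out single libraries gave 9 to 14, 16 to 20 and 12 to 17 calls in SUN2KO, Kashlid and LBD, and no difference from the share of all genes is read from these counts. The median log2 fold change over the 36 genes was -0.05, -0.01 and -0.08 for SUN2KO, Kashlid and LBD against WT, beside 0.00, 0.01 and 0.00 over all genes.

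By family, the MMPs had medians of 0.18, 0.04 and 0.11 in SUN2KO, Kashlid and LBD, and the ADAMs of -0.03, 0.09 and -0.02. Of the 12 MMPs tested 2 were higher and 2 lower in SUN2KO, 4 higher and 2 lower in Kashlid, and 3 higher and 1 lower in LBD. Of the 10 ADAMs tested 1 was higher and 2 lower in SUN2KO, 4 higher and 1 lower in Kashlid, and 4 higher and 1 lower in LBD. The ADAMTSs had medians of -0.27, -0.13 and -0.37, and of the 10 tested 0 were higher and 2 lower in SUN2KO, 1 higher and 4 lower in Kashlid, and 1 higher and 3 lower in LBD. The TIMPs had medians of 0.03, -0.41 and -0.06, with 2 higher and 0 lower in SUN2KO, 1 higher and 3 lower in Kashlid, and 1 higher and 2 lower in LBD.

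The groups' CPM did not overlap for 22 of the 36 genes in SUN2KO against WT, where 69.4% of all genes did not overlap. For Kashlid against WT the count was 26 (71.1% of all genes), and for LBD against WT it was 23 (70.0% of all genes). In each of the 3 comparisons 7, 11 and 8 of the called genes, for SUN2KO, Kashlid and LBD, had a fitted change of at least 1.5-fold. The 3 comparisons use the same WT libraries, so a gene called in several of them is not separate evidence each time. Against WT, ADAM12, MMP15 and TIMP1 were called higher in every line, and ADAM9, ADAMTS1, ADAMTS5 and MMP16 were called lower in every line. Another 15 genes were called in 1 or 2 lines in 1 direction, TIMP2 was called in both directions, and 13 were called in no line. How many of all genes changed at least 1.5-fold or showed these patterns was not counted. Nothing about the gene set is therefore read from these numbers.

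**Figure D1:**
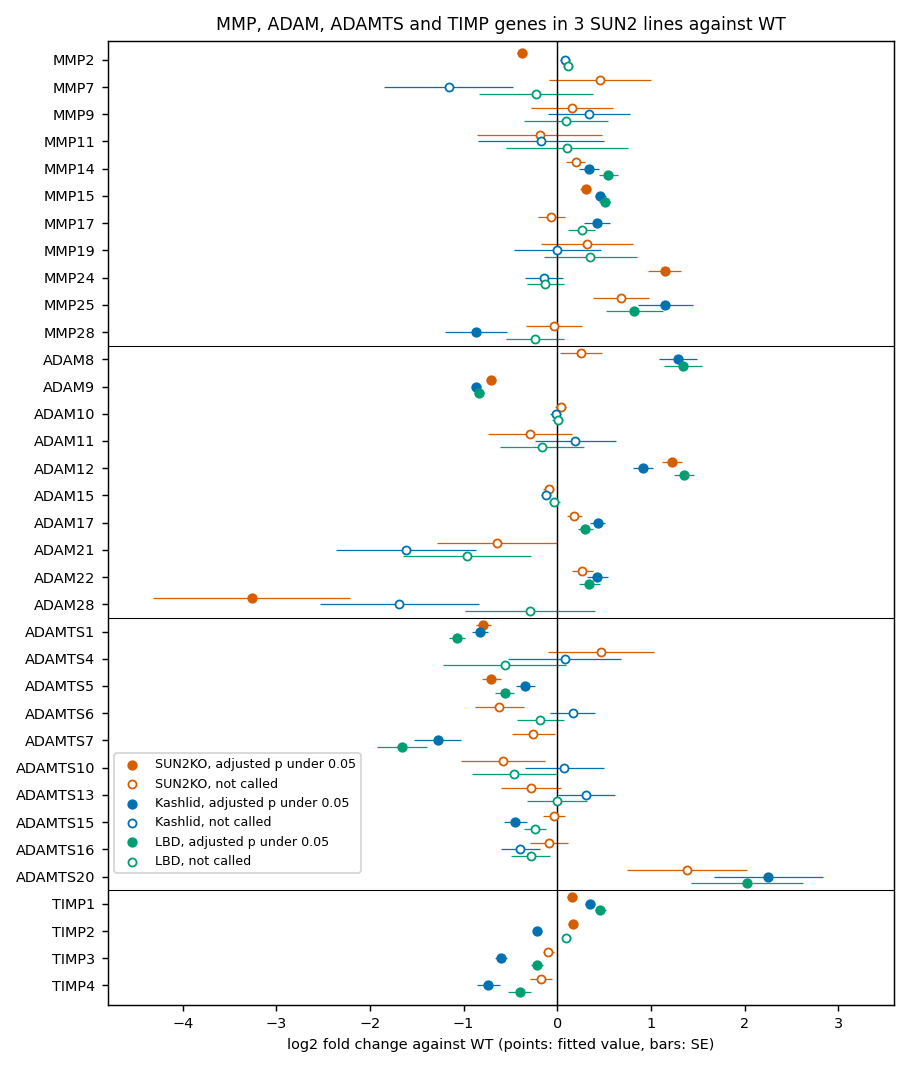
Log2 fold change against WT (horizontal axis) for the tested genes, 1 row each, in SUN2KO, Kashlid and LBD, with bars of 1 SE and filled points where the adjusted p is under 0.05; MMP16 is left out because its counts in the lines are near 0. ADAM12 lies to the right and ADAM9 and ADAMTS1 to the left in all 3 lines, and MMP24 is a filled point to the right in SUN2KO.

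Among the membrane-type MMPs, which act at the cell surface, MMP16 had the deepest loss of all 36 genes. MMP16 (chromosome 8, 89049460 to 89339717 on hg19) was at 3 and 2 counts in SUN2KO, 0 and 0 in Kashlid, 0 and 1 in LBD, and 119 and 137 in WT. The WT libraries stood far above all 6 libraries of the SUN2 lines. The 5 counts in SUN2KO against 256 in WT give a ratio of 55.2-fold lower (95% interval 23.3 to 171, counting error only). Against the 3 counts that 0 observed counts allow over the Kashlid group, MMP16 was at least 85.1-fold lower there. In LBD 1 count against 256 gives 253-fold lower (95% interval 45 to 10000). The gene was called lower in all 3 lines (adjusted p = 5.50e-09 in SUN2KO, 1.11e-09 in Kashlid and 2.05e-09 in LBD). It passed the filter only through WT. The 20 nearest tested genes on the same chromosome had median log2 fold changes of -0.31 in SUN2KO, -0.34 in Kashlid and -0.27 in LBD, and none of them fell as far as MMP16.

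The other membrane-type MMPs did not share that loss. MMP15 (chromosome 16, 58059282 to 58080804) had 90.1 and 86.5 CPM in SUN2KO, 99.2 and 97.7 in Kashlid, 103 and 100.4 in LBD, and 70.03 and 73.05 in WT. Every library of the lines was above both WT libraries. MMP15 was higher by 0.30 ± 0.06 in SUN2KO, 0.46 ± 0.06 in Kashlid and 0.51 ± 0.06 in LBD (log2 fold change ± SE, adjusted p = 0.000411, 2.38e-06 and 8.78e-07).

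MMP14 (chromosome 14, 23305742 to 23316808) is the membrane protease that activates the precursor of MMP2. It had 22.3 and 23.9 CPM in SUN2KO, 24.2 and 26.8 in Kashlid, 31.1 and 27.6 in LBD, and 19.5 and 20.7 in WT. The lines lay above WT in every library, yet the change in SUN2KO did not pass (0.20 ± 0.10, adjusted p = 0.141). MMP14 rose by 0.34 ± 0.10 in Kashlid (adjusted p = 0.0102) and by 0.54 ± 0.10 in LBD (adjusted p = 0.000207). The Kashlid call was lost without Kashlid replicate 2 (0.27, adjusted p = 0.0863), without WT replicate 1 (0.30, 0.0858) and after subtracting the median of its 5 Mb window (0.24, 0.0750).

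MMP24 (chromosome 20, 33814539 to 33864804), a membrane-type MMP best known from the nervous system, stood apart in SUN2KO. It had 14.4 and 11.9 CPM in SUN2KO, 4.74 and 6.04 in Kashlid, 5.67 and 5.20 in LBD, and 4.99 and 6.87 in WT. Both SUN2KO libraries were above the other 6, and Kashlid, LBD and WT overlapped. The gene was 2.21-fold higher in SUN2KO than in WT (1.15 ± 0.18, adjusted p = 3.80e-05). In Kashlid against SUN2KO its log2 fold change was -1.29 ± 0.18 (adjusted p = 3.04e-05) and in LBD against SUN2KO -1.27 ± 0.18 (adjusted p = 4.04e-05), while Kashlid and LBD against WT did not pass (-0.14 ± 0.20 and -0.13 ± 0.20). These 3 calls held in every alternative run.

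An antisense gene, MMP24-AS1, overlaps MMP24, and the strand setting of the counting is not given in the sources used here. Reads of the pair therefore cannot be told apart. The log2 fold change of MMP24-AS1 in SUN2KO against WT was -0.47 ± 0.20 (adjusted p = 0.0702). The 20 nearest tested genes had a median of -0.16 in SUN2KO, and none of them rose as far as MMP24.

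The 250 bases before the start of MMP24 are shown because it was the MMP most raised in SUN2KO (RefSeq, GRCh38.p14, chr20:35226440-35226689, plus strand, 5′ to 3′). Capitals mark GC boxes (GGGCGG) and the EGR1-type motif (GCGNGGGCG) on either strand.
MMP24: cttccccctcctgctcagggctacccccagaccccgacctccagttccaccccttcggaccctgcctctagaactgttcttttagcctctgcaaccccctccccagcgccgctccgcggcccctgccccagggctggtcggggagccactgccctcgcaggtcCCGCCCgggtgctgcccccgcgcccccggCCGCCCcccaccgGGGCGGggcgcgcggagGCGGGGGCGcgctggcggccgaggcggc
The stretch holds 3 GC boxes and 1 EGR1-type motif, which starts 28 bases before the gene. Over all 35116 promoters of this length 42.6% hold a GC box and 8.41% the EGR1-type motif.

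The GPI-anchored MMPs, MMP17 and MMP25, were both called higher in Kashlid. MMP17 rose by 0.43 there (adjusted p = 0.0179), and it was chosen after its values were seen. MMP25 (chromosome 16, 3096682 to 3110724) had 2.44 and 2.04 CPM in SUN2KO, 3.35 and 2.87 in Kashlid, 2.43 and 2.51 in LBD, and 1.43 and 1.36 in WT. All libraries of the lines were above WT. In Kashlid MMP25 rose by 1.16 ± 0.29 (2.23-fold, adjusted p = 0.00293), and in SUN2KO it did not pass (0.68 ± 0.30, adjusted p = 0.0859). In LBD it rose by 0.82 ± 0.30 (adjusted p = 0.0355), a call that was lost without either LBD library (0.85 and 0.80, adjusted p = 0.0880 and 0.112), without either WT library (0.85 and 0.79, 0.107 and 0.133), in DESeq2 (0.134) and after the window offset (0.0636).

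The secreted gelatinase MMP2 (chromosome 16, 55513081 to 55540586) separated SUN2KO from the other groups. It had 134 and 139.8 CPM in SUN2KO, 186 and 190.2 in Kashlid, 187 and 197 in LBD, and 180.5 and 175 in WT. Both SUN2KO libraries were below the other 6. MMP2 fell by 0.37 ± 0.05 in SUN2KO against WT (adjusted p = 1.08e-05), while 0.08 ± 0.05 in Kashlid and 0.11 ± 0.05 in LBD did not pass. The level in Kashlid exceeded that in SUN2KO by 0.46 ± 0.05 (adjusted p = 2.30e-06), and the level in LBD exceeded it by 0.49 ± 0.05 (1.05e-06).

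MMP28, epilysin (chromosome 17, 34083268 to 34122711), had 2.27 and 2.20 CPM in SUN2KO, 1.16 and 1.35 in Kashlid, 2.26 and 1.61 in LBD, and 2.08 and 2.50 in WT. Its Kashlid libraries were the lowest of the 8. The log2 fold change in Kashlid against WT was -0.87 ± 0.33 (adjusted p = 0.0378). That call was lost without either Kashlid library (-0.76 and -0.98, adjusted p = 0.154 and 0.0732), without either WT library (-0.99 and -0.73, 0.0591 and 0.186) and in DESeq2 (0.136). The tested MMPs called in no line were MMP7, MMP9, MMP11 and MMP19. MMP19 shares its place with TMEM198B, so its reads may be divided between them.

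**Figure D2:**
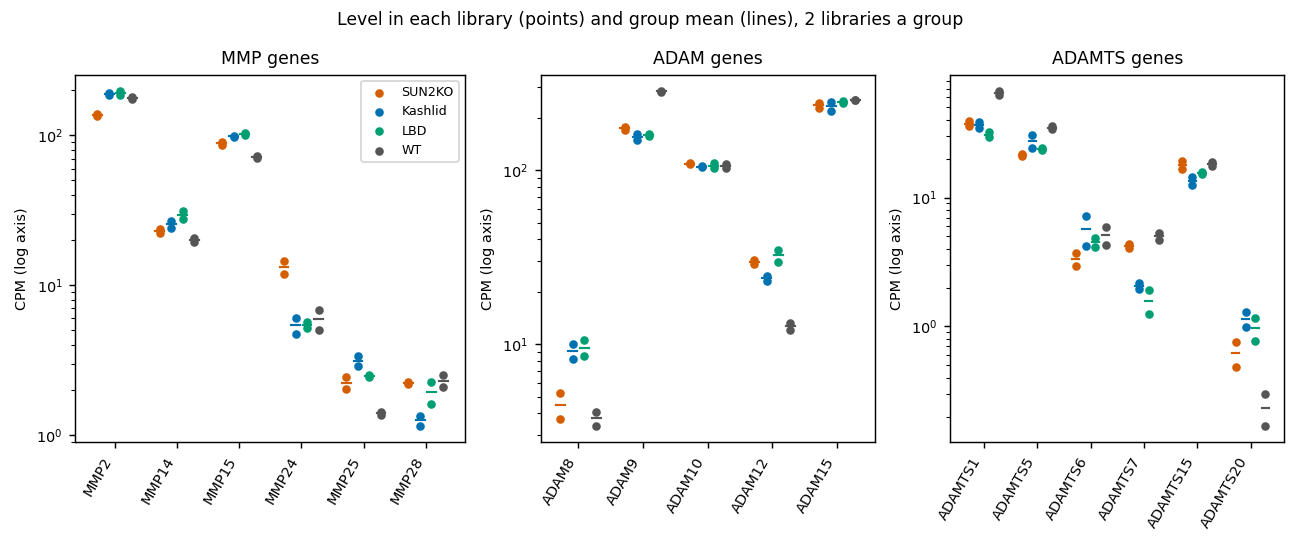
CPM on a log axis (vertical) of the named MMP, ADAM and ADAMTS genes, 1 panel per family, in SUN2KO, Kashlid, LBD and WT, with 1 point per library and a short line at each group mean; MMP16 and ADAM28 are left out because some of their libraries are at 0. The WT points of ADAM9 and ADAMTS1 sit above those of the 3 lines, and the SUN2KO points of MMP24 sit above all others.

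Among the ADAMs, the sheddases ADAM10 and ADAM15 stayed near their WT levels. ADAM10, which cuts Notch receptors and cadherins (chromosome 15, 58887403 to 59042177), had 108 and 109.5 CPM in SUN2KO, 104 and 105 in Kashlid, 109.7 and 103 in LBD, and 104 and 109 in WT. The WT range overlapped with that of every line, with log2 fold changes of 0.04 ± 0.06, -0.02 ± 0.06 and 0.00 ± 0.06 in SUN2KO, Kashlid and LBD. ADAM15 (chromosome 1, 155023748 to 155035252) had 229 and 245 CPM in SUN2KO, 218 and 248 in Kashlid, 245 and 249 in LBD, and 252 and 254 in WT. Its changes against WT were -0.09 ± 0.06, -0.12 ± 0.06 and -0.03 ± 0.06, and none passed. ADAM17, the main sheddase of TNF, rose by 0.43 ± 0.08 in Kashlid (adjusted p = 0.000166) and by 0.30 ± 0.08 in LBD (adjusted p = 0.00519). ADAM22, a catalytically inactive member that binds LGI proteins, rose in both as well (0.43 in Kashlid, adjusted p = 0.00294, and 0.34 in LBD, 0.0167). ADAM17 and ADAM22 were chosen after their values were seen.

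ADAM9 (chromosome 8, 38854505 to 38962779), a widely expressed membrane protease, was lower in all 3 lines. It had 177 and 171 CPM in SUN2KO, 161 and 150.2 in Kashlid, 161 and 157 in LBD, and 283 and 284.5 in WT. The WT libraries stood well above the other 6. ADAM9 was 1.63-fold lower in SUN2KO (-0.71 ± 0.05, adjusted p = 1.41e-09), 1.83-fold lower in Kashlid (-0.87 ± 0.05, 4.09e-11) and 1.79-fold lower in LBD (-0.84 ± 0.05, 9.53e-11). Its 20 nearest tested genes had medians of -0.27 in SUN2KO, -0.31 in Kashlid and -0.30 in LBD, and 2, 1 and 1 of the 20 fell further than ADAM9. After subtracting the median of its 5 Mb window, ADAM9 was at -0.33 in SUN2KO, -0.49 in Kashlid and -0.38 in LBD (adjusted p = 5.40e-05, 2.14e-07 and 7.80e-06).

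ADAM12 and ADAM8 both lie on the long arm of chromosome 10. ADAM12 was higher in all 3 lines, and ADAM8 in Kashlid and LBD. ADAM12 (127729911 to 128077127), which cuts IGF-binding proteins and EGF-receptor ligands, had 30.4 and 28.75 CPM in SUN2KO, 23.1 and 24.8 in Kashlid, 29.85 and 35.0 in LBD, and 12.1 and 13.2 in WT. The groups of lines did not overlap with WT. It was 2.33-fold higher in SUN2KO (1.22 ± 0.11, adjusted p = 2.70e-08), 1.89-fold higher in Kashlid (0.92 ± 0.11, 1.15e-06) and 2.55-fold higher in LBD (1.35 ± 0.11, 3.87e-09).

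ADAM8 (135075920 to 135090407), a protease best known from leukocytes, had 3.73 and 5.21 CPM in SUN2KO, 8.27 and 10.1 in Kashlid, 8.56 and 10.5 in LBD, and 4.10 and 3.41 in WT. Kashlid and LBD lay above SUN2KO and WT, which overlapped. ADAM8 rose 2.44-fold in Kashlid (1.29 ± 0.20, adjusted p = 3.09e-05) and 2.54-fold in LBD (1.35 ± 0.20, 2.25e-05), and in SUN2KO 0.25 ± 0.22 did not pass. Set against SUN2KO directly, Kashlid was higher by 1.04 ± 0.20 (adjusted p = 0.000755) and LBD by 1.09 ± 0.20 (0.000536).

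Genes around both loci were higher too. The 20 nearest tested genes of ADAM12 had medians of 0.69 in SUN2KO, 0.75 in Kashlid and 0.71 in LBD, and the 19 nearest of ADAM8 had 0.60, 0.86 and 0.82. After subtracting the median of its 5 Mb window, ADAM12 was at 0.53 in SUN2KO (adjusted p = 0.000937) and 0.65 in LBD (9.38e-05), where the values without the offset were 1.22 and 1.35, and in Kashlid at 0.16 (0.296). ADAM8 had no window with enough genes. The part of the regional shift in these results was not otherwise tested.

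**Figure D3:**
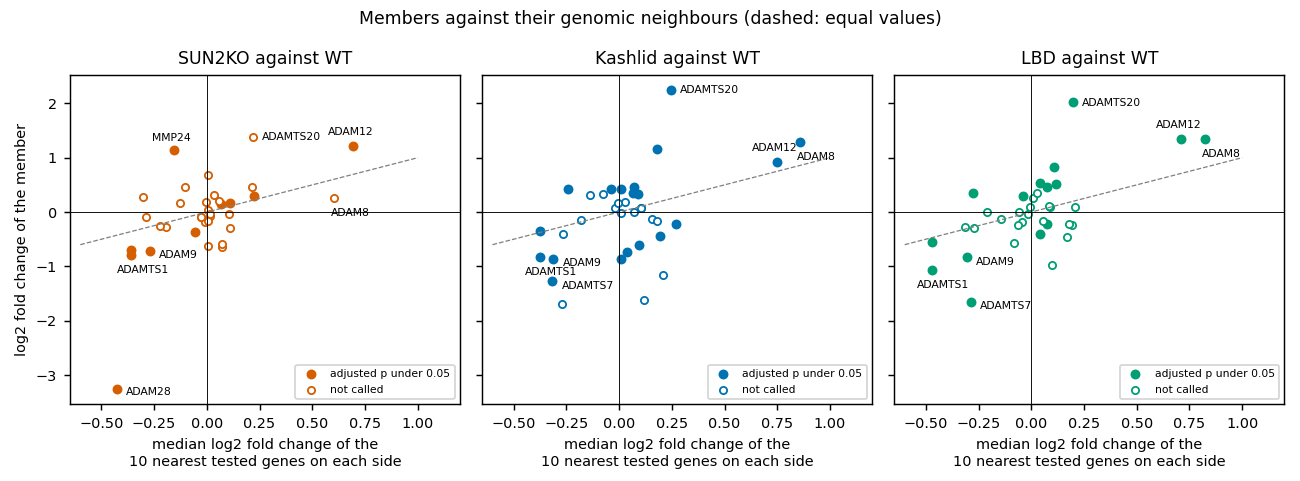
Log2 fold change against WT of each tested gene (vertical axis) against the median of its nearest tested genes, 10 on each side where the chromosome end allows (horizontal axis), 1 panel per line, filled where the adjusted p is under 0.05; MMP16 is left out. ADAM12 and ADAM8 lie at the right, where neighbours were also higher, and ADAM9 and ADAMTS1 at the left, where neighbours were lower, while MMP24 in SUN2KO rises over neighbours near -0.16.

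ADAM28, a protease of lymphoid and some epithelial cells (chromosome 8, 24151580 to 24193612), was near 0. It had 2 and 0 counts in SUN2KO, 1 and 5 in Kashlid, 6 and 10 in LBD, and 5 and 15 in WT. The SUN2KO libraries were below both WT libraries, and LBD overlapped WT. The gene passed the filter only through its larger counts in LBD and WT. The 2 counts in SUN2KO against 20 in WT give a ratio of 10.8-fold lower (95% interval 2.62 to 95.1, adjusted p = 0.0189). This call was lost without SUN2KO replicate 2 (adjusted p = 0.166), without WT replicate 2 (0.270) and in DESeq2 (0.0686).

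Of the ADAMTSs, the neighbours ADAMTS1 and ADAMTS5 on chromosome 21 fell together. Both cut aggrecan and versican, proteoglycans of the matrix. ADAMTS1 (28208606 to 28217728) had 39.2 and 35.6 CPM in SUN2KO, 38.2 and 34.6 in Kashlid, 29.3 and 32.1 in LBD, and 66.8 and 62.5 in WT. It was 1.73-fold lower in SUN2KO (-0.79 ± 0.08, adjusted p = 1.93e-07), 1.77-fold lower in Kashlid (-0.83 ± 0.08, 6.52e-08) and 2.10-fold lower in LBD (-1.07 ± 0.08, 2.38e-09). No library of the lines reached the WT range.

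ADAMTS5 (28290231 to 28339439) had 21.65 and 21.1 CPM in SUN2KO, 30.6 and 24.4 in Kashlid, 23.2 and 24.15 in LBD, and 34.1 and 35.7 in WT. The WT libraries were again the highest, and Kashlid replicate 1 came nearest to them. ADAMTS5 was 1.63-fold lower in SUN2KO (-0.71 ± 0.10, adjusted p = 1.59e-05) and 1.47-fold lower in LBD (-0.56 ± 0.10, 0.000172). In Kashlid its log2 fold change was -0.34 ± 0.10 (0.00870), a call lost without Kashlid replicate 2 (-0.19, 0.180) and without WT replicate 2 (-0.31, 0.0718). The 20 nearest tested genes of the pair, spread over 15.9 Mb, had medians of -0.36 in SUN2KO, -0.38 in Kashlid and -0.47 in LBD. In Kashlid 14 of those 20 fell further than ADAMTS5, while 2 of 20 fell further than ADAMTS1.

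ADAMTS7, which cuts cartilage oligomeric matrix protein, was low in Kashlid and LBD (chromosome 15, 79051545 to 79103773). It had 4.33 and 4.08 CPM in SUN2KO, 1.97 and 2.17 in Kashlid, 1.91 and 1.26 in LBD, and 4.70 and 5.34 in WT. The Kashlid and LBD libraries were all below those of SUN2KO and WT. ADAMTS7 was 2.42-fold lower in Kashlid (-1.28 ± 0.25, adjusted p = 0.000331) and 3.16-fold lower in LBD (-1.66 ± 0.26, 3.95e-05) than in WT, while in SUN2KO -0.26 ± 0.23 did not pass. Its 20 nearest tested genes had medians of -0.32 in Kashlid and -0.29 in LBD. After the window offset ADAMTS7 was at -0.89 in Kashlid and -1.27 in LBD (adjusted p = 0.00830 and 0.000860). LBD against SUN2KO gave -1.40 ± 0.27 (adjusted p = 0.000964). Kashlid against SUN2KO gave -1.02 ± 0.26 (0.00729), and 0.0624 without SUN2KO replicate 1. A pseudogene, ADAMTS7P1, had 2 counts in all, so reads assigned to it are few, but how the counting treated reads matching both is not given.

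ADAMTS15, another aggrecan- and versican-cutting member (chromosome 11, 130318869 to 130346539), had 16.56 and 19.3 CPM in SUN2KO, 12.5 and 14.4 in Kashlid, 15.9 and 15.25 in LBD, and 17.7 and 19.0 in WT. The Kashlid libraries were the lowest. In Kashlid against WT the log2 fold change was -0.45 ± 0.12 (adjusted p = 0.00458). It was lost without Kashlid replicate 1 (-0.35, adjusted p = 0.0556) and without WT replicate 2 (-0.40, 0.0524).

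ADAMTS20 (chromosome 12, 43748012 to 43945724) was scarce and is given as counts too. It had 9 and 14 counts in SUN2KO, 17 and 22 in Kashlid, 20 and 13 in LBD, and 5 and 3 in WT. Every library of the lines was above WT, and the gene passed the filter only through the lines. It was 4.77-fold higher in Kashlid (2.25 ± 0.58, adjusted p = 0.00345) and 4.07-fold higher in LBD (2.03 ± 0.60, 0.0103), and in SUN2KO 1.39 ± 0.64 did not pass (0.0985). Without WT replicate 2 neither call held (Kashlid 1.91, adjusted p = 0.0521; LBD 1.68, 0.104), and without LBD replicate 1 the LBD call was lost (1.71, 0.0968).

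ADAMTS6 (chromosome 5, 64444563 to 64777704) had 2.92 and 3.71 CPM in SUN2KO, 7.17 and 4.22 in Kashlid, 4.86 and 4.13 in LBD, and 5.94 and 4.26 in WT. It was called in no line against WT. In Kashlid against SUN2KO it was higher by 0.78 ± 0.26 (adjusted p = 0.0373), with Kashlid replicate 1 far above replicate 2. Without that library the value was 0.35 (adjusted p = 0.469), and without SUN2KO replicate 1 or 2 it was 0.62 or 0.96 (0.277 or 0.0705). The remaining tested ADAMTSs, ADAMTS4, ADAMTS10, ADAMTS13 and ADAMTS16, were called in no line against WT.

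The inhibitors split by line. TIMP1 rose, TIMP3 and TIMP4 fell in Kashlid and LBD, and TIMP2 went opposite ways in SUN2KO and Kashlid. TIMP1 (chromosome X, 47441690 to 47446190) had 158 and 157 CPM in SUN2KO, 175 and 186 in Kashlid, 195 and 194 in LBD, and 136 and 147 in WT. All 6 libraries of the lines were above both WT libraries. It rose by 0.35 ± 0.05 in Kashlid (adjusted p = 2.38e-05) and by 0.46 ± 0.05 in LBD (1.07e-06). In SUN2KO it rose by 0.16 ± 0.05 (0.0303), a call lost without either SUN2KO library (adjusted p = 0.118 and 0.101), without WT replicate 1 (0.10, 0.315), in DESeq2 (0.0599) and after the window offset (0.259). LBD was above SUN2KO by 0.30 ± 0.05 (adjusted p = 0.000464).

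TIMP2 (chromosome 17, 76849059 to 76921472), which both inhibits MMPs and helps MMP14 to activate MMP2, had 615 and 604 CPM in SUN2KO, 445 and 490.3 in Kashlid, 594 and 565 in LBD, and 541 and 545 in WT. SUN2KO and LBD lay above WT and Kashlid below it. In SUN2KO TIMP2 rose by 0.17 ± 0.05 (adjusted p = 0.00892), but the sign turned to -0.06 (adjusted p = 0.402) after subtracting the median of its 5 Mb window. That call was also lost without SUN2KO replicate 1 (0.16, adjusted p = 0.0631), without WT replicate 1 (0.16, 0.0651) and without WT replicate 2 (0.17, 0.0520). In Kashlid TIMP2 fell by 0.22 ± 0.05 (0.000963; -0.55 after the window offset), and in LBD 0.09 ± 0.05 did not pass (0.124). Kashlid against SUN2KO gave -0.38 ± 0.05 (adjusted p = 6.60e-06) and LBD against Kashlid 0.31 ± 0.05 (0.00118).

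TIMP3, the matrix-bound TIMP that also inhibits ADAM17 and the aggrecan-cutting ADAMTSs (chromosome 22, 33196802 to 33259028), had 95.8 and 90.9 CPM in SUN2KO, 62.85 and 68.3 in Kashlid, 85.0 and 86.15 in LBD, and 96.7 and 102.5 in WT. Its Kashlid libraries were the lowest, followed by LBD. TIMP3 was 1.52-fold lower in Kashlid than in WT (-0.60 ± 0.06, adjusted p = 1.73e-07). In LBD it fell by 0.22 ± 0.06 (0.00799; -0.33 after the window offset), lost without LBD replicate 1 (adjusted p = 0.0569) and without WT replicate 2 (0.107). Kashlid was also below SUN2KO, at -0.51 ± 0.06 (adjusted p = 6.61e-06), and LBD was above Kashlid by 0.38 ± 0.06 (0.00214).

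TIMP4 (chromosome 3, 12194568 to 12200851) had 17.97 and 15.4 CPM in SUN2KO, 11.5 and 10.97 in Kashlid, 14.98 and 13.4 in LBD, and 17.8 and 19.7 in WT. The order of the groups was that of TIMP3. TIMP4 was 1.67-fold lower in Kashlid (-0.74 ± 0.12, adjusted p = 5.99e-05). In LBD it fell by 0.40 ± 0.12 (0.0114), lost without LBD replicate 2 (-0.32, adjusted p = 0.115), without WT replicate 2 (-0.33, 0.118) and in DESeq2 (0.0537). Kashlid against SUN2KO gave -0.57 ± 0.12 (0.00266), and 0.0699 without SUN2KO replicate 1. LBD against Kashlid, 0.34 ± 0.13, did not pass (0.173). TIMP1, TIMP3 and TIMP4 lie within the synapsin genes SYN1, SYN3 and SYN2, which had 15, 26 and 157 counts over all libraries beside 23510, 12054 and 2133 for the TIMPs.

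**Figure D4:**
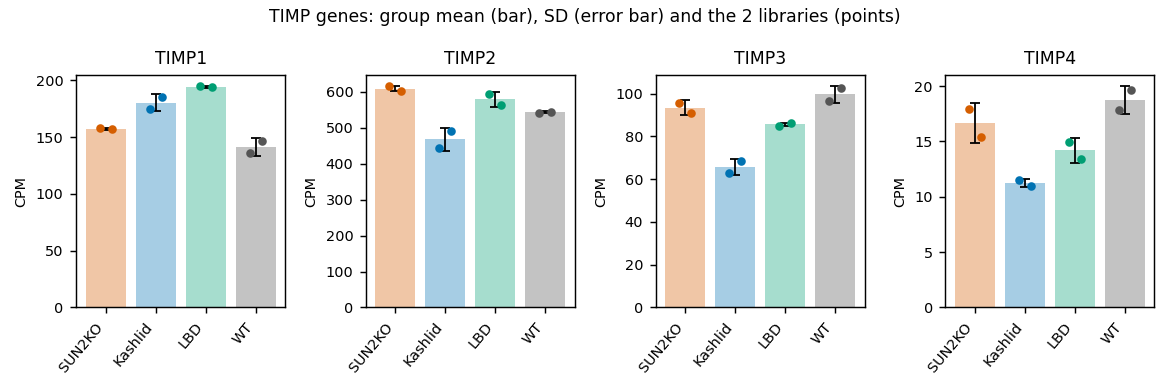
CPM of TIMP1, TIMP2, TIMP3 and TIMP4 (vertical axes, from 0) in each library, for SUN2KO, Kashlid, LBD and WT. Bars are group means, error bars the SD and points the 2 libraries of each group. TIMP1 is lowest in WT, and TIMP2, TIMP3 and TIMP4 are lowest in Kashlid.

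The 250 bases before the gene start are shown for the 3 genes higher in every line, ADAM12, MMP15 and TIMP1, and for TIMP3 and TIMP4, which fell together in Kashlid (RefSeq, GRCh38.p14, 5′ to 3′). They lie at chr10:126388478-126388727 (minus strand) for ADAM12, chr16:58025504-58025753 (plus) for MMP15, chrX:47582186-47582435 (plus) for TIMP1, chr22:32801455-32801704 (plus) for TIMP3 and chr3:12158913-12159162 (minus) for TIMP4. Capitals mark GC boxes (GGGCGG) on either strand.
ADAM12: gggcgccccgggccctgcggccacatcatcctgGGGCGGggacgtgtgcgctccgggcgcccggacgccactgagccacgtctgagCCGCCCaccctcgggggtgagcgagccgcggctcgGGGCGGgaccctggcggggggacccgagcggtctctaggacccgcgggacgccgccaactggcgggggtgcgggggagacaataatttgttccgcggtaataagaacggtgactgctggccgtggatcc
MMP15: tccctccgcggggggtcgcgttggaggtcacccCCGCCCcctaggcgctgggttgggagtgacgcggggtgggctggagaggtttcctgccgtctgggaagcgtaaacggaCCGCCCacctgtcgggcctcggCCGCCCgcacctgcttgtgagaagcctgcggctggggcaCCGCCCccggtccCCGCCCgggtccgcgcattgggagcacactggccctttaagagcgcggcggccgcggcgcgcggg
TIMP1: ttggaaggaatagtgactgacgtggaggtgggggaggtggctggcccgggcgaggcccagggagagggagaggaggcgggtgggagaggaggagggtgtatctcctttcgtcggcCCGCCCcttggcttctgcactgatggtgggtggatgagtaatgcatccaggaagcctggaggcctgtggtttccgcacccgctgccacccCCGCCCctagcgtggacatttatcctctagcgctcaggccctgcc
TIMP3: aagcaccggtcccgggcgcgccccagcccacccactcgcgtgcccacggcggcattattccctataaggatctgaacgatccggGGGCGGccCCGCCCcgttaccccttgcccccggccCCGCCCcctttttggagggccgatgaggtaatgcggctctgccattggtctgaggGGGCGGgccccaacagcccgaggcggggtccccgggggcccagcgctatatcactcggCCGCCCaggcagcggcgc
TIMP4: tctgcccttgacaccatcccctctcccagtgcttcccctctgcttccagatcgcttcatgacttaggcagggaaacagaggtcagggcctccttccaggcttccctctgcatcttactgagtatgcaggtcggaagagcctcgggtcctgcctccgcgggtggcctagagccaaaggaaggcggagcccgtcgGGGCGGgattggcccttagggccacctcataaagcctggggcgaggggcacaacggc
There were 3 GC boxes before ADAM12, 5 before MMP15, 2 before TIMP1, 5 before TIMP3 and 1 before TIMP4. None of the 5 stretches held the AP-1 motif (TGANTCA) or TATAAA in this window.

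A promoter was listed for 38 of the 67 genes and for 20 of the 36 tested ones, with 21 promoters among these because ADAMTS10 has more than 1. A GC box was found in 17 of the 21, against 42.6% of all promoters. The AP-1 motif was found in 1, that of MMP7, against 6.57%, and TATAAA in those of ADAMTS10 and MMP7, against 10.7%. The EGR1-type motif was found before ADAM15, ADAMTS10 and MMP24. The 21 promoters belong to genes that passed the filter on low counts, while all promoters were not limited in that way. The shares are therefore not read as a trait of this gene set. A match is a description of the letters and not of binding.

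The lines were also set against one another. In Kashlid against SUN2KO 15 of the 36 tested genes were called, 7 higher and 8 lower, or 41.7%, against 18.0% of all genes (8.92% higher and 9.13% lower). All 4 TIMPs were among them, TIMP1 higher and the other 3 lower. The count fell to 8 in DESeq2, to 6 without SUN2KO replicate 1 and to 8 without SUN2KO replicate 2. In LBD against SUN2KO 8 were called, 5 higher and 3 lower, or 22.2%, against 13.5% of all genes (6.69% higher and 6.79% lower), and the count was 5 without LBD replicate 1 or without SUN2KO replicate 1. In LBD against Kashlid 3 were called, all higher, or 8.33%, against 2.91% of all genes (1.63% higher and 1.28% lower). These were ADAM12, TIMP2 and TIMP3. The CPM of the groups did not overlap for 28 of the 36 genes in Kashlid against SUN2KO (56.8% of all genes), 23 in LBD against SUN2KO (54.6%) and 17 in LBD against Kashlid (43.8%).

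Several smaller differences between the lines kept their direction but lost their call in some alternatives, most often with 1 library left out. In LBD against Kashlid ADAM12 was higher by 0.44 ± 0.10 (adjusted p = 0.0196), lost without Kashlid replicate 1 (0.39, 0.104) and without LBD replicate 2 (0.32, 0.234), and in the fit of these groups alone (0.0706). In Kashlid against SUN2KO ADAM12 gave -0.31 (0.0382), ADAM9 -0.16 (0.0371), ADAMTS5 0.36 (0.0183), ADAMTS15 -0.41 (0.0195) and TIMP1 0.20 (0.0140), and each call was lost when any 1 of several libraries was left out, with adjusted p up to 0.229, 0.243, 0.297, 0.210 and 0.0946. DESeq2 gave 0.133, 0.0527, 0.0581 and 0.0804 for the first 4. ADAMTS5 stood at 0.19 without Kashlid replicate 1. In LBD against SUN2KO ADAMTS1 gave -0.28 (0.0310), MMP14 0.35 (0.0225) and MMP15 0.20 (0.0219), lost in the same way with adjusted p up to 0.286, 0.206 and 0.176. DESeq2 gave 0.104 for ADAMTS1 and 0.0818 for MMP14, and the window offset 0.200 for MMP15.

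Genes that act on these proteases were counted in 5 lists, to be read against the 36.7% (SUN2KO), 44.5% (Kashlid) and 40.0% (LBD) of all genes called against WT. Of 14 genes for activation and trafficking, 12 were tested, and against WT 2 were higher and 3 lower in SUN2KO, 2 higher and 3 lower in Kashlid, and 4 higher and 3 lower in LBD. The 5 of 12 called in SUN2KO and in Kashlid are near the 36.7% and 44.5% of all genes. TSPAN15, a tetraspanin that escorts ADAM10 to the cell surface, was 26.9 CPM in LBD and 14.1 in WT (0.93 ± 0.12, adjusted p = 2.93e-06), and it was also called higher in SUN2KO and Kashlid (0.84 and 0.87). RHBDF1, an iRhom that carries ADAM17 through the secretory pathway, was 22.4 CPM in LBD and 14.5 in WT (0.63 ± 0.12, 0.000175). FURIN, the convertase that removes the prodomain of membrane-type MMPs and ADAMs, was 204 CPM in SUN2KO and 315 in WT (-0.63 ± 0.05, 3.89e-09), and it was called lower in Kashlid and LBD too (-0.45 and -0.40). After the window offset FURIN was at -0.32 in SUN2KO.

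Of 8 genes listed for inhibition and clearance other than TIMPs, 6 were tested, with 2 higher and 3 lower in SUN2KO, 0 higher and 4 lower in Kashlid, and 1 higher and 4 lower in LBD, where 36.7%, 44.5% and 40.0% of all genes were called. The list mixes roles, so a gene called higher is not read as more inhibition of these proteases. PZP, a broad protease inhibitor of the alpha-2-macroglobulin family, fell to 0.440 CPM in LBD, against 4.83 in WT (-3.43 ± 0.41, adjusted p = 1.06e-06). It was also lower in Kashlid (-3.03 ± 0.38) but higher in SUN2KO (1.63 ± 0.23, 1.44e-05). TFPI2, a secreted inhibitor of serine proteases, was 13.4 CPM in SUN2KO and 30.4 in WT (-1.18 ± 0.13, 4.05e-07), and at -0.88 after the window offset. SPOCK2, a matrix proteoglycan, was 11.1 CPM in SUN2KO and 7.47 in WT (0.57 ± 0.15, 0.00405), and 0.39 (0.0503) after the window offset.

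All 12 AP-1 and ETS factors, which bind the promoters of many MMP genes, were tested. In SUN2KO 1 was higher and 4 lower, in Kashlid 2 higher and 0 lower, and in LBD 2 higher and 2 lower, beside 36.7%, 44.5% and 40.0% of all genes called. ETS1 was 79.6 CPM in SUN2KO and 55.3 in WT (0.52 ± 0.06, adjusted p = 1.48e-06), ETV5 was 62.0 CPM in SUN2KO and 85.75 in WT (-0.47 ± 0.10, 0.000887), and JUNB was 212 CPM in Kashlid and 157 in WT (0.44 ± 0.10, 0.000861). The Kashlid libraries of JUNB lay apart, at 243.4 and 180.6 CPM. Without Kashlid replicate 1 its change was 0.21, and DESeq2 gave an adjusted p of 0.0498 with all libraries. Of 8 EGFR-family ligands, substrates of ADAM sheddases, 6 were tested, with 2 higher and 0 lower in SUN2KO, 3 higher and 0 lower in Kashlid, and 3 higher and 1 lower in LBD. Of all genes, 17.5%, 21.7% and 19.0% were called higher in these comparisons. EREG was 242 CPM in Kashlid and 113 in WT (1.10 ± 0.11, 9.55e-08), and it was also higher in SUN2KO (0.79) and LBD (0.95). The Kashlid libraries of EREG lay apart too, at 291.7 and 191.6 CPM. Its change in Kashlid was 0.77 without Kashlid replicate 1, and 1.36 after the window offset with all libraries. EPGN was 36.7 CPM in LBD and 18.3 in WT (1.01 ± 0.14, 5.42e-06). NRG1 was 2.99 CPM in LBD and 4.81 in WT (-0.68 ± 0.26, 0.0391). It was lost when any 1 library of LBD, SUN2KO or WT was left out (adjusted p 0.0510 to 0.216), with library size only (0.0511) and in DESeq2 (0.124).

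Of 12 related metalloproteases and ADAMTS-like proteins, 5 were tested, with 3 higher and 2 lower in SUN2KO, 3 higher and 2 lower in Kashlid, and 1 higher and 2 lower in LBD, against 36.7%, 44.5% and 40.0% of all genes called. BMP1, the procollagen C-proteinase, was 69.97 CPM in Kashlid and 111 in WT (-0.66 ± 0.06, adjusted p = 2.48e-08), and it was lower in SUN2KO (-0.62) and LBD (-0.53) as well. After the window offset BMP1 was at -0.46 in Kashlid. Its relative TLL1 was 58.8 CPM in SUN2KO and 90.2 in WT (-0.62 ± 0.07, 4.96e-07). ADAMTSL4, an ADAMTS-like matrix protein without protease domain, was 125 CPM in Kashlid and 81.4 in WT (0.62 ± 0.08, 1.87e-06). The list medians against WT ran from -0.39 for inhibition and clearance in LBD to 0.43 for EGFR-family ligands in Kashlid, beside 0.00 and 0.01 over all genes tested.

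The authors' deposited tables give their own comparisons with WT. Read for the 36 tested genes, they gave 9 of them an adjusted p under 0.05 in SUN2KO, 13 in Kashlid and 12 in LBD. All of these were also called here in the same direction, beside 11, 20 and 16 calls here. The rest of the 67 genes were not looked up there. The other calls made here did not pass in the authors' deposited tables. In SUN2KO these were ADAM28 and TIMP1 (adjusted p = 0.09452 and 0.05767, DESeq2). In Kashlid they were ADAMTS5, ADAMTS15 and ADAMTS20 (0.07046, 0.05898 and 0.05325). MMP14, MMP17, MMP25 and MMP28 also did not pass in Kashlid (0.09838, 0.119, 0.05801 and 0.2437). In LBD they were ADAM22, ADAMTS20, MMP25 and TIMP4 (0.1304, 0.1125, 0.2498 and 0.08694).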

How the data were processed

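RNA sequencing was analysed from 8 libraries, 2 per group, assigned by the GEO titles. The submitters' processing notes list Trim Galore, STAR 2.7.1a, bedtools 2.24.0 and HTSeq, with hg19 as the genome build. The authors deposited unnormalized read counts by gene, in which 0 entries named no gene. Neither annotation release nor strandedness is given in the sources used here, so reads of overlapping or near-identical genes may be misassigned. The authors' deposited comparison tables, made with DESeq2 per the submitters' processing notes, have no column names. Their log2 fold changes, the authors' own, correlated at 0.999 with values recomputed here, and Benjamini-Hochberg adjustment of the p-values the authors deposited gave their adjusted column to within 1.67e-15. Another 12 unnamed columns per library were not used. The counts went into edgeR 4.0.16 (R 4.3.3) with TMM normalization, filterByExpr (14016 of 25369 genes kept) and the quasi-likelihood test. All 8 libraries entered the model with a term for each group (4 residual degrees of freedom). The two-sided p was adjusted by Benjamini-Hochberg across every gene tested, with a threshold of 0.05. CPM are TMM-scaled and carry the SD of 2 libraries, and log2 fold changes carry the SE of the fit. Intervals for near-zero genes are exact 95% binomial intervals of the count ratio and cover counting error only, with 3 counts over a group as the limit for 0. Library totals lay between 16570099 and 18814795 counts. Replicates of a group differed by more than sampling noise (chi-square per degree of freedom 2.51 to 5.60), so none was a duplicate. The genes and the regulator lists were chosen with earlier results of these data known. Values per library are given for called genes changed at least 1.5-fold at 1 CPM or more, against WT or between lines, for all TIMPs, for genes with at most 3 counts in a group and at least 20 in another, and for the 3 most abundant of each protease family. Up to 3 called genes per regulator list are named. Alternatives were DESeq2 1.42.0, scaling by median-ratio factors or by library size only, no filter, the groups of a comparison alone, a replicate block, an offset by the median of 5 Mb windows with at least 15 genes, and leaving out each library. For the regulators these were added after seeing the data, and the neighbour medians (10 genes each side) were also chosen then. Data were simulated from the WT means and the spread of all 8 libraries, with changes set in SUN2KO (13481 genes, 200 changed). Of these, 73% of 1.5-fold and 87% of 2-fold changes were recovered, and 9 of 169 calls were false. Genes of few counts did not enter, and a far smaller share of genes was changed than was called in the real data. These rates therefore do not carry over to the comparisons here or to scarce genes. Exon lengths came from GENCODE v29 on GRCh38, and promoters from RefSeq on GRCh38.p14, while gene positions are those of the authors' tables on hg19.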

Additional observations from a re-analysis of the deposited data

Results flagged for a closer look

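TIMP2 differed between lines that were each compared with WT. It was lower in Kashlid than in WT (log2 fold change -0.22) and higher in SUN2KO than in WT (0.17). The direct difference, Kashlid against SUN2KO, was -0.38 (adjusted p = 6.60e-06, edgeR's quasi-likelihood test), with both Kashlid libraries below both SUN2KO libraries. The SUN2KO value had the opposite sign, -0.06, after subtracting the median of its 5 Mb window.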

How the results depend on the processing

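Counts of called genes stayed within 1.5 times of the value reported under every scaling, filter, block and window alternative run, except that DESeq2 called 8 genes in Kashlid against SUN2KO, where edgeR called 15. Leaving out single libraries gave 9 to 14 calls in SUN2KO against WT, 16 to 20 in Kashlid against WT, 12 to 17 in LBD against WT, 6 to 15 in Kashlid against SUN2KO, 5 to 8 in LBD against SUN2KO and 2 to 4 in LBD against Kashlid. Of 81 called values of single genes, 54 kept their direction and stayed past the threshold under every alternative that gave a value, and 27 did not in at least 1. These 81 pool the genes given per library with the named regulators, which were the largest called changes of their lists. Among the regulators only SPOCK2 and NRG1 were in the 27, so the share that held was lower for the proteases and TIMPs. The calls of ADAM17, ADAM22 and MMP17 were not run through the alternatives. The sign of 1 value turned: TIMP2 in SUN2KO against WT, -0.0587 after the window offset. The cause was not tested. The window offset left 10 of the 36 tested genes unadjusted, for lack of enough genes in their window. The replicate block gave 12 calls in SUN2KO against WT, where the fit without it gave 11, and 20, 16, 15, 8 and 3 in the other comparisons, as without it. Libraries with the same number showed no strong shared deviation (correlations of -0.00742 to 0.0844). These correlations run over all genes and include counting noise, so they cannot tell whether the numbers pair the samples. Other scalings moved the median of all genes by at most 0.0386 (log2). With 2 libraries per group, changes under 1.5-fold and genes of a few counts per library are at the limit of what this depth shows.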
